A study of Mus musculus with 21 samples.

Results

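The comparison set 4 RNA sequencing libraries of 6694c2 EPHA2-KO line B against 4 libraries of the parental line 6694c2, which make up 8 of the 21 libraries of the series. They were chosen by name alone, as the columns of the authors' table that carry the clone name and the knockout line letter B, or the clone name with no knockout. Clone 6694c2 is a line of mouse pancreatic tumour cells. The cells had been placed under the skin of C57BL/6 mice and were sorted back out of the tumours 3 weeks later, with no treatment. The age of the mice, the way EPHA2 was edited and whether line B descends from a single edited cell are not stated. The parental libraries are called parental or WT here because their titles carry only the clone name, and no mock-edited line is among the samples. Line A, the other EPHA2-KO line of 6694c2, had 4 libraries, and clone 6419c5 had 3 libraries each of its parental line and of 2 EPHA2-KO lines, all grown and sorted in the same way. Knockout lines carry letters in the table and numbers in the sample titles, and the key between them is unknown here.

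EPHA2 is a receptor tyrosine kinase that binds ephrin ligands on neighbouring cells, and it is found at high levels in many carcinomas. In tumours of the pancreas, the tumour cells shape which immune cells enter through the chemokines and growth factors they release, and they respond to interferon from T cells by raising antigen presentation. Pancreatic tumour cells also lie along a range of states, from glandular cells with gastric mucins to cells that make mesenchymal and matrix genes. The values were transcripts per 1000000 (TPM), a relative abundance with the same sum in each library. Differences are given as line B less parental on the log2(TPM + 1) scale with limma's standard error (SE), where 1 is a factor of 2 in TPM + 1 and the change of a gene near 0 TPM is understated. A gene was called at a Benjamini-Hochberg adjusted p under 0.05 over all genes tested. Whether each library came from its own mouse is not stated, so a p value measures the spread between these libraries, which may be technical. With 1 parental line and 1 edited line, the knockout and any other difference between the lines cannot be told apart.

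The 8 libraries each had between 12437 and 12712 genes at 1 TPM or more, and the number of reads behind them is unknown. Pearson's r across the tested genes was 0.982 to 0.990 within the groups and 0.912 to 0.926 between them. Line B library 4 stood apart in one gene: Mir6236, a short RNA gene, took 14.5% of its TPM, against 2.27% to 2.68% in the other line B libraries and 3.30% to 5.45% in the parental ones. This lowers every other TPM of that library. The labelled cell type was checked first. The summed level of 8 epithelial tumour markers ran from 7440 to 8980 TPM in parental libraries and from 7407 to 8498 in line B. Single markers did shift, with 5 of 8 called higher and 2 lower, from Muc1 at 1.14 to Sox9 at −0.62. Over all genes tested, 34.9% were called higher and 24.7% lower. None of 14 pancreatic acinar markers other than Cela1, Ctrl and Try5 was tested. The sum of 16 macrophage markers ran from 349 to 1619 TPM in parental and from 223 to 529 in line B. Of 14 tested, 2 were called lower and none higher, both under the shares over all genes. The sum of 8 markers of all leukocytes ran from 48.4 to 143 against 28.6 to 52.9 (1 of 8 called higher, 2 lower). That of 14 T and NK cell markers ran from 3.63 to 4.16 against 7.16 to 9.64 (1 of 1 tested called higher), and 12 of the 14 stayed under 1 TPM in all 8 libraries. That of 7 erythroid markers ran from 84.1 to 125 against 251 to 389 (3 of 3 tested called higher), and that of 12 fibroblast and pericyte markers from 227 to 311 against 108 to 152 (2 of 11 called higher, 9 lower). In sorted cells, fewer cells of a type and less RNA per cell cannot be told apart.

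Line B differed from the parental line in most of the genes measured. Of 13080 genes tested, 7794 were called, which is 59.6%. Higher calls numbered 4563 (34.9%) and lower calls 3231 (24.7%), and the median difference over all tested genes was 0.08. A difference of at least 1 was reached by 1669 called genes (12.8%), 869 higher (6.64%) and 800 lower (6.12%). The share of calls that were higher was 58.5%, and it was 49.6% after median-of-ratios scaling, 51.1% after quantile normalization and 63.0% without line B library 4. The median-of-ratios scaling moved the median over all genes from 0.08 to 0.01. Among the tested genes, 326 were under 1 TPM in every parental library and 305 in every line B library, so they entered only through the group in which they were high. Named genes of the first kind include Ciita, Gbp4, Gbp8, Cxcl11 and Adgrg7, and of the second Grem1, Mmp10, Gzme and Rasgrf1. The filter favoured the direction of such genes, so their calls and p values are no separate support for it.

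**Figure D1:**
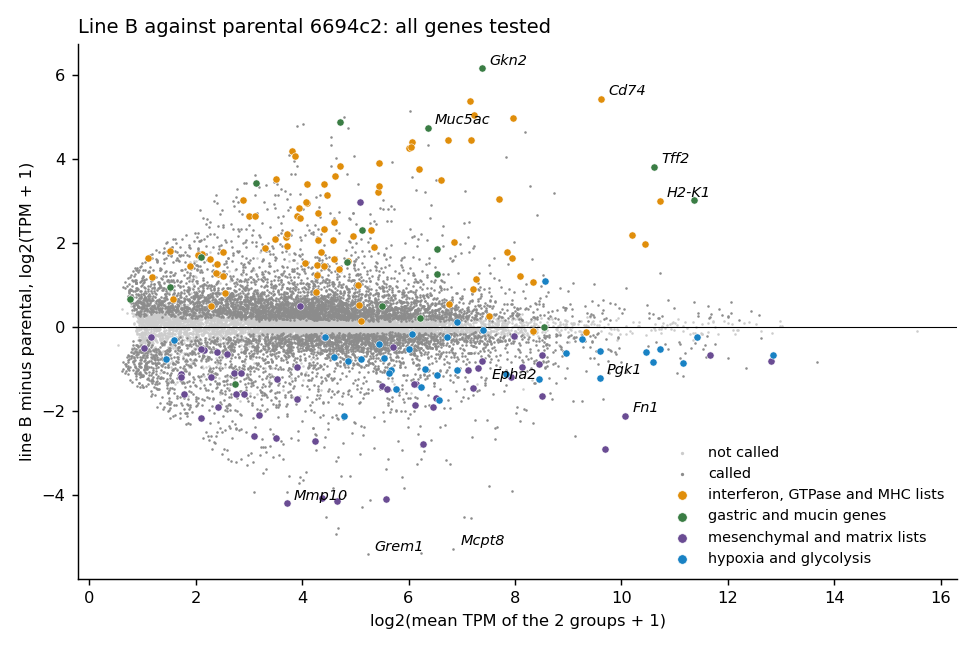
Difference between line B and parental 6694c2 on the log2(TPM + 1) scale (vertical axis) against log2 of the mean TPM of the groups plus 1 (horizontal axis), one point per gene tested; grey points are the 13080 genes and coloured points the members of named gene lists. The interferon and MHC lists and the gastric list lie mostly above 0, up to Gkn2 at 6.16, and the mesenchymal, matrix and hypoxia lists mostly below 0, with Grem1 the lowest named gene at −5.41.

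The targeted gene was lower in line B but not absent. Epha2 was at 244, 239.9, 243 and 252 TPM in the parental libraries and at 90.9, 113, 99 and 88 TPM in the line B libraries. The 4 line B libraries all lay below the lowest parental library, at 97.8 ± 11.4 TPM against 245 ± 5.11 (SD, n = 4 each). The difference was −1.32 ± 0.08 (SE, adjusted p 6.67e-07), and the exact two-sided permutation test gave p = 0.0286, the smallest that 4 against 4 libraries allows. A small edit that stops the protein need not lower the RNA, so TPM is no full check of the knockout. Epha2 lies at chr4:141301221-141329384 (GRCm38.p6). Against all 4 libraries of line A the gene was not called different (line B less line A −0.22, adjusted p 0.107), but with line A libraries 1 and 2, which stood apart from the other pair of that line, left out it was (−0.41, adjusted p 0.00246).

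Other receptors of the family moved both ways. EPH receptors bind ephrins, which are themselves held in the membrane of the neighbouring cell. Of 14 EPH receptor genes, 7 were tested, of which 3 were called higher and 2, Epha2 among them, lower, where 34.9% of all genes were called higher and 24.7% lower. Ephb6 stood at 8.97, 9.19, 8.25 and 8.79 TPM in the parental libraries, against 23.4, 29.2, 27.5 and 22.6 TPM in line B. Ephb6, a receptor without kinase activity, was higher in every line B library than in any parental one, by 1.44 ± 0.09 (adjusted p 9.09e-07). Epha7 rose from a mean of 5.11 to 9.71 TPM (0.81, adjusted p 1.78e-05). Epha4 fell from 4.22 to 2.93 TPM (−0.41, adjusted p 0.00574); parental library 2 was its lowest parental value at 3.63 TPM, and the call was lost when all 12 libraries of 6694c2 shared one fit (adjusted p 0.152) or all 21 did (0.137). Of 8 ephrin genes, 1 was called higher and 3 lower. In the parental libraries Efnb1 was at 80.9, 74, 69.1 and 72.5 TPM, and in line B at 38.1, 41.5, 41.7 and 34.1 TPM. Efnb1, a ligand of EPHB receptors, thus fell with no overlap between the groups (−0.92 ± 0.08, adjusted p 7.7e-06). Efna1, the main ligand of EPHA2, fell from 137 to 83.9 TPM (−0.70, adjusted p 8.55e-05), Efna3 was low and fell from 1.44 to 0.788 (−0.45, adjusted p 0.00821), and Efna5 rose from 20.1 to 26.7 (0.39, adjusted p 0.000143).

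**Figure D2:**
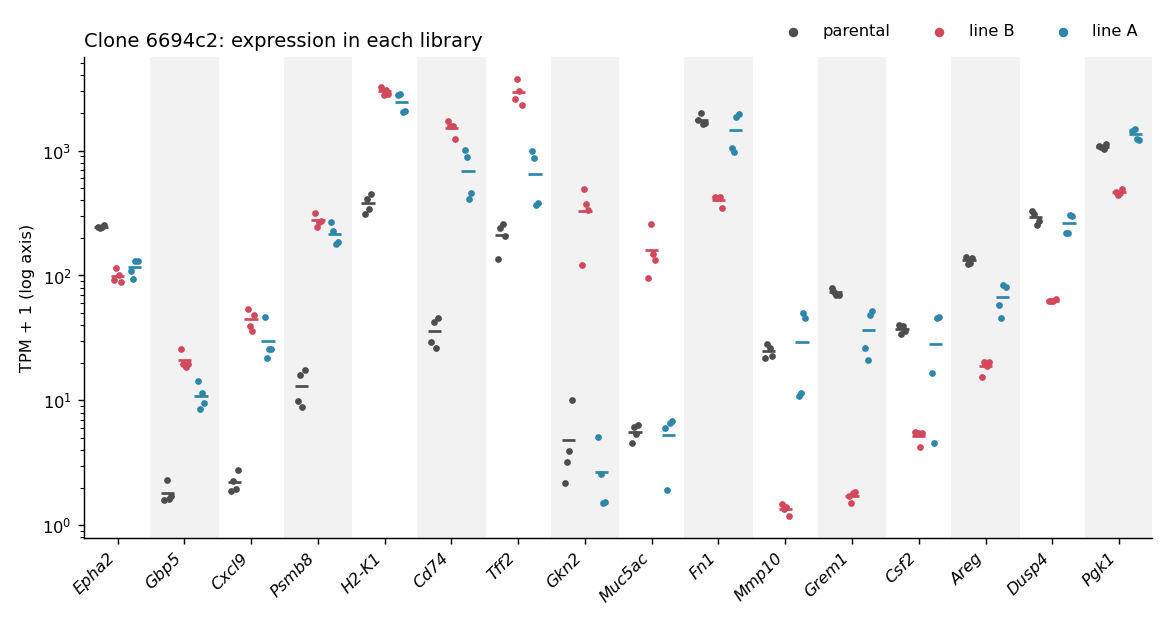
TPM plus 1 on a log axis for 16 genes in each library of clone 6694c2, with 4 parental, 4 line B and 4 line A libraries per gene; points are libraries and short lines are means of TPM plus 1. The line B points lie apart from the parental points in all 16 genes, and the line A points spread into 2 pairs in several genes, such as Csf2 and Fn1.

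Promoters of a few genes are printed here, since several results below concern genes that are textbook targets of one kind of transcription factor. They were picked by hand, not by the size of the change, and all hold the letters marked in them. They therefore do not show how common a motif is among the genes that changed. Each is the 250 bases before the gene start in RefSeq (GRCm38.p6), 5′ to 3′ on the strand of the gene. Capitals mark letters of a motif, searched on both strands: GAAA, any 2 bases and GAAA again for the interferon-stimulated response element (ISRE) bound by IRF factors, TGANTCA for the AP-1 site of FOS and JUN factors, and ACGTG for the core of the hypoxia response element (HRE) bound by HIF factors. Overlapping matches were counted separately. Promoters were available for 27025 genes, and for 114 of the 160 genes named by the rule. The first 3 genes are interferon targets that were higher in line B: Gbp5 at chr3:142496684-142496933 on the plus strand, Stat2 at chr10:128270248-128270497 on the plus strand and Cxcl10 at chr5:92348890-92349139 on the minus strand. The next 3 are matrix proteases that were lower: Mmp3 at chr9:7445572-7445821, Mmp10 at chr9:7502092-7502341 and Mmp13 at chr9:7272264-7272513, all on the plus strand. The last 2 are glycolysis genes that were lower, Pgk1 at chrX:106186850-106187099 and Slc2a1 at chr4:119108495-119108744, both on the plus strand.
Gbp5: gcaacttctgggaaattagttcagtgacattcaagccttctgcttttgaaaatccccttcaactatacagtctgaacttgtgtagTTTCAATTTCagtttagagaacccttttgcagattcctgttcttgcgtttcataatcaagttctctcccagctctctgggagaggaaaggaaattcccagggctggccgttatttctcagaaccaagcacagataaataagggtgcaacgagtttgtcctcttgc
Stat2: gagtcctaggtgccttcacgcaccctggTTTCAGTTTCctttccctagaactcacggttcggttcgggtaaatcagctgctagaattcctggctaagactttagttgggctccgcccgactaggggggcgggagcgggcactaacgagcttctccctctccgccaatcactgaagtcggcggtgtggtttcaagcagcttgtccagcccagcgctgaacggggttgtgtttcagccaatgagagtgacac
Cxcl10: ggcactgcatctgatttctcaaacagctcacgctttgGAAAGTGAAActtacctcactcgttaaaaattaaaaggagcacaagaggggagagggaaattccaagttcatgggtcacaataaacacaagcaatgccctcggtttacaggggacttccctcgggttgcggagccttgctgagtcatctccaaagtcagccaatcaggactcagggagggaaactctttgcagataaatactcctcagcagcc
Mmp3: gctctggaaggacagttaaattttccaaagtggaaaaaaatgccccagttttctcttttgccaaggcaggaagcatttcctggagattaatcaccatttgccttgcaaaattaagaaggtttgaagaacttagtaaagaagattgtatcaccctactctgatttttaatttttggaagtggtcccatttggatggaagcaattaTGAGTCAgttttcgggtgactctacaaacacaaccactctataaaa
Mmp10: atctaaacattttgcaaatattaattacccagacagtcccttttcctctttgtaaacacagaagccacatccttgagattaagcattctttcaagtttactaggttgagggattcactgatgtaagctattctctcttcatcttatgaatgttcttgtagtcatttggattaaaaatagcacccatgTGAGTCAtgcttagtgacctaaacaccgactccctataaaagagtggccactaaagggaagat
Mmp13: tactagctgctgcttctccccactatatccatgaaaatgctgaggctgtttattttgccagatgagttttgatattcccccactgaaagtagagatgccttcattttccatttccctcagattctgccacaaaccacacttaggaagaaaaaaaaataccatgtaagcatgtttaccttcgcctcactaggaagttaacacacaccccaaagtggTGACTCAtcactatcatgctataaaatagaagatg
Pgk1: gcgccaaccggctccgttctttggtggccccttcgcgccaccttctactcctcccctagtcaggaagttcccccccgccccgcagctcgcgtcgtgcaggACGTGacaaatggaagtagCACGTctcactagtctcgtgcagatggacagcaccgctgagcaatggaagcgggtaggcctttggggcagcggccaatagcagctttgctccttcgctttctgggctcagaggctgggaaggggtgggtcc
Slc2a1: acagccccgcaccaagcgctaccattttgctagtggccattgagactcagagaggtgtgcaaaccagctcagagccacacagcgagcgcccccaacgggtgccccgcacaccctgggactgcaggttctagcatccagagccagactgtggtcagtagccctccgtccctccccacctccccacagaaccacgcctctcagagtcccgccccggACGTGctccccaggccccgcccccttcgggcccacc

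In Gbp5 the ISRE begins 165 bases before the start, in Stat2 222 bases and in Cxcl10 213 bases before it. In Mmp3, Mmp10 and Mmp13 the AP-1 letters begin 46, 63 and 35 bases before the start. Pgk1 holds the HRE letters 150 and 131 bases before its start and Slc2a1 36 bases before it. Other letters searched for also occur in these windows: Gbp5 holds the gamma-activated site TTCNNNGAA at 2 places, Cxcl10 the AP-1 letters once and Mmp13 the ISRE letters once. Over all 27025 genes with a promoter, 3.46% hold the ISRE letters in such a window, 7.82% the AP-1 letters and 18.5% the HRE letters. A match of letters describes the sequence and does not show that a factor binds there.

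Genes of the interferon response were higher in line B. Interferon gamma acts through JAK kinases, which lead to a rise of IRF1, NLRC5 and CIITA, and these raise the antigen presentation genes. Of 22 genes of interferon signalling, 17 were called higher and 1 lower, with a median difference of 0.83 against 0.08 over all genes. Levels of Nlrc5 were 0.874, 1.2, 0.965 and 1.78 TPM in the parental libraries and 17.4, 15.8, 17.2 and 14.6 TPM in line B. Nlrc5, the transactivator of MHC class I genes, rose by 2.98 ± 0.13 (adjusted p 1.34e-07), and its groups did not overlap. Ciita, the transactivator of MHC class II genes, was near 0 in every parental library. Ciita had 0.289, 0.314, 0.163 and 0.526 TPM in parental libraries 1 to 4 and 16, 12.7, 12.8 and 11.2 TPM in line B. The difference was 3.42 ± 0.12 (adjusted p 5.86e-08), for a gene that passed the filter only through line B. Stat2, a transcription factor of the type I response, rose from 6.43 ± 0.499 to 23.7 ± 1.82 TPM (1.73, adjusted p 1.55e-07).

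Effectors of the response were higher in line B as well. Of 39 interferon effectors tested, 38 were called higher and none lower (median 1.57). Those with the smallest p were Ddx58, the RNA sensor RIG-I, which rose from 4.46 to 19.7 TPM (1.93, adjusted p 1.5e-07), Parp14, an ADP-ribosyltransferase, from 3.73 to 20.1 (2.15, adjusted p 2.36e-07), Ifi35 from 13.7 to 42.8 (1.57, adjusted p 2.62e-07) and Trim25, the ubiquitin ligase that activates RIG-I, from 21.1 to 43.4 (1.01, adjusted p 2.75e-07). The guanylate-binding proteins and immunity-related GTPases, which attack the compartments of intracellular pathogens, were higher without exception. All 16 listed were tested and called higher, with a median of 3.31, and their summed level ran from 51.5 to 88.9 TPM in parental libraries and from 676 to 986 in line B. Among them Gbp4 and Gbp8 were under 1 TPM in every parental library and passed the filter only through line B. Parental libraries 1 to 4 gave 0.368, 0.676, 0.544 and 0.946 TPM for Gbp4, and line B gave 33.7, 23.5, 22.8 and 25.8 TPM. Line B held 25, 18.5, 17.4 and 18.6 TPM of Gbp5, where the parental line held 0.598, 1.3, 0.62 and 0.719 TPM. Gbp4 rose by 4.07 ± 0.14 (adjusted p 5.4e-08) and Gbp5 by 3.53 ± 0.15 (adjusted p 1.18e-07). Line B library 1 was the highest for both genes. Gbp3 rose from 3.5 to 38.7 TPM (3.13), Gbp8 from 0.637 to 12.2 (3.02) and Iigp1, an immunity-related GTPase, from 5.4 to 127 (4.40; adjusted p 1.6e-07, 1.82e-07 and 1.92e-06). Genes of these families resemble each other closely, and how shared reads were split between them is not stated. Promoters were available for 9 of the 16 genes: all 9 hold the ISRE letters and 6 hold TTCNNNGAA, the gamma-activated site, against 3.46% and 8.13% of all promoters. Of 29 effectors with a promoter 9 hold the ISRE letters, and of 18 interferon signalling genes with a promoter 3 do. Of 5 MHC class II genes with a promoter, 0 hold them.

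Antigen presentation rose with the interferon genes. MHC class I shows peptides from inside the cell to CD8 T cells, after the immunoproteasome cuts them and the TAP transporter brings them in. Of 23 genes of class I and peptide loading tested, 21 were called higher and none lower (median 1.79), and their summed level was 2941 to 3567 TPM in parental libraries and 10662 to 12296 in line B. For H2-K1, the parental values were 308, 412, 342 and 445 TPM and the line B values 3217, 2805, 3073 and 2856 TPM. The classical class I heavy chain H2-K1 (chr17:33996012-34000619) thus rose by 3.00 ± 0.11 (adjusted p 6.6e-08). Psmb8 measured 8.87, 15.1, 7.81 and 16.5 TPM in parental libraries 1 to 4 and 317, 245, 267 and 269.6 TPM in line B libraries 1 to 4. Tap1 was at 6.74, 9.62, 8.66 and 11.7 TPM in the parental libraries and at 157, 121, 131 and 133 TPM in the line B libraries. Psmb8, a catalytic subunit of the immunoproteasome, rose by 4.46 ± 0.21 (adjusted p 2.22e-07) and Tap1, a chain of the peptide transporter, by 3.76 ± 0.14 (adjusted p 6.93e-08). The neighbouring subunit gene Psmb9 rose from 8.44 ± 1.74 to 204 ± 24.5 TPM (4.45, adjusted p 2.82e-08) and Tapbp, the tapasin that loads the peptide, from 102 to 356 (1.79, adjusted p 8.14e-08). H2-Q8, a non-classical class I gene, was listed at 0 in 1 parental library and measured 108 to 141 TPM in line B (5.15, adjusted p 3.06e-05); it is nearly identical to its neighbours in the H2-Q cluster, so its own level is uncertain.

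MHC class II genes showed the largest list median. Class II shows peptides to CD4 T cells and is made by professional antigen-presenting cells, and by epithelial cells under interferon gamma. All 7 genes tested of 9 listed were called higher, with a median of 4.98. Cd74 stood at 28.6, 41.7, 25.1 and 44.6 TPM in the parental libraries, against 1712, 1581, 1582 and 1226 TPM in line B. Cd74, the invariant chain, rose by 5.43 ± 0.18 (adjusted p 5.05e-08), and its lowest line B library was far above its highest parental one. In the parental libraries H2-Eb1 was at 4.79, 6.78, 5.3 and 5.81 TPM, and in line B at 326, 270.1, 285 and 223 TPM. Levels of H2-Aa were 6.76, 9.33, 6.62 and 8.5 TPM in the parental libraries and 345, 291, 306 and 227 TPM in line B. H2-Eb1 rose by 5.37 ± 0.12 (adjusted p 1.17e-08) and H2-Aa by 5.05 ± 0.14 (adjusted p 2.1e-08). H2-Ab1 rose from 14.6 ± 3.14 to 485 ± 56.7 TPM (4.98, adjusted p 2.57e-08). Macrophages, dendritic cells and B cells make class II constitutively. Of 14 macrophage markers tested, 2 were called lower and none higher (24.7% and 34.9% of all genes), and of 2 dendritic cell markers tested 1 was called lower and none higher. The macrophage marker Adgre1 measured 1.40 to 11.8 TPM in parental libraries and 0.588 to 4.88 in line B, C1qa 26.8 to 252 against 7.59 to 72.1, and the leukocyte marker Ptprc 0.524 to 3.02 against 0.652 to 1.52. No B or plasma cell marker was high enough to test, and their summed level ran from 0.350 to 1.1 TPM in parental libraries and from 0.907 to 2.64 in line B. Among them Ms4a1 did not pass 0.297 TPM in any of the 8 libraries, Pax5 measured 0 to 0.176 TPM in parental libraries and 0.309 to 0.966 in line B, and Jchain, an immunoglobulin chain of plasma cells, 0.0860 to 0.440 and 0.377 to 1.40. The summed dendritic cell markers measured 5.27 to 5.53 TPM in parental libraries and 4.01 to 5.46 in line B. Of these Flt3 and Clec9a did not pass 0.159 TPM, while every line B library lay above the parental ones for Batf3 (0.793 to 1.1 against 0.345 to 0.550) and Xcr1 (0.353 to 0.603 against 0.204 to 0.304), both too low to test. The part of macrophages, B cells and dendritic cells in the class II result was not tested. The T cell marker Cd3d, the 1 tested of the T and NK markers, was higher in line B (3.22 to 5.15 TPM against 2.29 to 2.61, 0.46, adjusted p 0.00987), and Nkg7 was listed at 0 in the parental libraries and at 0.286 to 0.700 in line B. Ifng, the gene of interferon gamma, was listed at 0 in all parental libraries and reached 0.247 TPM at most in line B. The part of these T cell values in the interferon result was not tested.

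Chemokines split by the cells they attract. Cxcl9, Cxcl10 and Cxcl11, the interferon-induced ligands of CXCR3 on T cells, all rose, and of 8 T cell attracting chemokines tested 6 were called higher and none lower (median 1.32). Cxcl9 had 0.899, 1.26, 0.937 and 1.78 TPM in parental libraries 1 to 4 and 53.1, 38.3, 35.2 and 47.5 TPM in line B. Cxcl9 rose by 4.33 ± 0.16 (adjusted p 5.95e-08), with the T and NK cell marker sum also higher in line B, as given above. Parental libraries 1 to 4 gave 8.49, 11.3, 12.9 and 11.7 TPM for Cxcl10, and line B gave 84.4, 66.4, 55.2 and 69.9 TPM. Cxcl10 rose by 2.53 ± 0.15 (adjusted p 6.23e-07), Cxcl11 from 0.713 to 6.92 TPM (2.21, adjusted p 2.96e-07) and Cxcl16, the ligand of CXCR6, from 48.4 to 78.6 (0.68, adjusted p 0.000166). Factors that recruit and sustain myeloid cells went the other way. Of 18 tested, none was called higher and 13 were called lower (median −0.97), and 8 with all 12 libraries of 6694c2 in the fit. Line B held 4.55, 4.48, 3.27 and 4.47 TPM of Csf2, where the parental line held 38.9, 32.8, 38.7 and 35.1 TPM. Csf2, the gene of GM-CSF, fell by 2.85 ± 0.10 (adjusted p 5.17e-08). For Csf3, the parental values were 1.37, 2.3, 1.91 and 0.904 TPM and the line B values 0.351, 0.139, 0.159 and 0.128 TPM. Csf3, the gene of G-CSF, was low in both groups and lower in line B (−1.11 ± 0.18, adjusted p 0.000512). Cxcl1 measured 52, 68, 58.2 and 57.6 TPM in parental libraries 1 to 4 and 28, 47.9, 18.8 and 22.2 TPM in line B libraries 1 to 4. Cxcl1, a neutrophil chemokine, fell by 1.07 ± 0.24 (adjusted p 0.00391), and this call was lost in fits with 12 (adjusted p 0.196) and 21 libraries (0.129). The cytokines Lif and Il11 of the interleukin 6 family fell from 18.7 to 6.77 TPM (−1.36, adjusted p 7.99e-06) and from 4.78 to 0.931 (−1.59, adjusted p 3.72e-06), and Il34, a ligand of the CSF1 receptor, from 35 to 18.2 (−0.91, adjusted p 5.94e-06). The macrophage marker sum was also lower in line B, at 223 to 529 TPM against 349 to 1619, and its part in this result was not tested.

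Ligands of immune checkpoints had no common direction. Of 10 tested, 4 were called higher and 4 lower (median −0.25). Siglec15 was at 146, 141, 133 and 164 TPM in the parental libraries and at 3.15, 2.5, 1.15 and 3.94 TPM in the line B libraries. Siglec15, an inhibitory lectin of the Siglec family, fell by 5.38 ± 0.22 (adjusted p 1.06e-07) and was the second lowest named gene of the comparison. Nt5e, the enzyme CD73 that makes adenosine, fell from 109 to 52.6 TPM (−1.04, adjusted p 3.89e-07). Tnfrsf14, a ligand of BTLA, rose from 5.96 to 40.7 (2.59, adjusted p 5.32e-07), and the galectin Lgals9 from 119 to 270.2 (1.16, adjusted p 1.53e-05). Cd274 stood at 2.73, 4.32, 2.96 and 2.52 TPM in the parental libraries, against 6.34, 4.75, 4.03 and 5.47 TPM in line B. Cd274, the gene of PD-L1, rose by 0.58 ± 0.16 (adjusted p 0.0103) with 1 parental library inside the range of line B, and its call was lost with all 21 libraries in the fit (adjusted p 0.1). Of 20 targets of NF-kappaB, 7 were called higher and 5 lower, close to the shares of 34.9% and 24.7% over all genes tested. The adhesion molecules Vcam1 and Icam1 rose from 194 to 394 TPM (1.01) and from 60.5 to 133 (1.12), Sod2, the mitochondrial superoxide dismutase, rose from 15 to 25.5 (0.73), and the adaptor Traf1 fell from 13 to 4.94 (−1.22; adjusted p 1.31e-06, 1.83e-05, 1.23e-05 and 3.3e-05).

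Genes of the gastric lining rose to high levels in line B. Gastrokines, trefoil factors and gastric mucins are made by surface mucous cells of the stomach and appear in precursor lesions of pancreatic cancer. Of 22 listed genes 17 were tested, of which 15 were called higher and none lower (median 1.66), and the summed level was 1310 to 1510 TPM in parental libraries and 7063 to 11806 in line B. In the parental libraries Gkn2 was at 1.2, 2.24, 2.94 and 9.08 TPM, and in line B at 121, 488, 369 and 332 TPM. Gkn2, a gastrokine (chr6:87373365-87379494), rose by 6.16 ± 0.52 (adjusted p 7.59e-06), the largest higher call among the named genes. Levels of Muc5ac were 3.55, 5.14, 4.37 and 5.36 TPM in the parental libraries and 94.7, 256, 148 and 133 TPM in line B. Tff2 had 135, 237, 258 and 205 TPM in parental libraries 1 to 4 and 2589.8, 3713, 3020.4 and 2325 TPM in line B. Muc5ac, the mucin of the gastric surface, rose by 4.74 ± 0.26 (adjusted p 4.5e-07), and Tff2, the trefoil factor of mucous neck cells, by 3.81 ± 0.21 (adjusted p 4.66e-07). Line B libraries 1 and 2 were the extremes of Gkn2 and Muc5ac, and neither overlapped the parental libraries. Parental libraries 1 to 4 gave 0.788, 0, 0.408 and 1.04 TPM for Gkn1, and line B gave 16.7, 81, 52.5 and 48.1 TPM. Gkn1, next to Gkn2 on chromosome 6, rose with it (4.87 ± 0.42, adjusted p 9.42e-06). Cym, the stomach protease chymosin, rose from 10.7 to 57 TPM (2.31, adjusted p 1.42e-07) and Vsig1, an adhesion molecule of gastric epithelium, from 53.8 to 129.8 (1.25, adjusted p 1.61e-07).

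Epithelial genes were mostly higher, though not all. Of 27 tested, 16 were called higher and 8 lower (median 0.64). Dsp, the desmosomal plaque protein, rose from 42.1 ± 2.9 to 108 ± 11.4 TPM (1.34, adjusted p 8.6e-07), and Dsg2, a desmosomal cadherin, from 21.7 to 38.9 (0.81, adjusted p 1.41e-06). Tjp3, a tight junction protein, rose from 15.4 to 45.6 (1.5, adjusted p 1.66e-06), and Spint2, an inhibitor of membrane proteases, from 469 to 960.1 (1.03, adjusted p 2.78e-06). Among transcription factors of the pancreas and foregut, 5 of 12 tested were called higher and 1 lower (34.9% and 24.7% of all genes). Gata4 rose from 31.6 to 72.1 TPM (1.16), Klf4 from 124 to 238 (0.92) and Pdx1, the factor that specifies the pancreas, from 52.2 to 82.4 (0.65; adjusted p 4.51e-06, 2.14e-05 and 4.27e-05). Most squamous genes were too low to test, and of 8 tested 2 were called higher and 4 lower. The cornified envelope genes Ivl and Sprr1a fell from 13.3 to 1.38 TPM (−2.59, adjusted p 1.73e-07) and from 534 to 108 (−2.28, adjusted p 6.88e-06), while Krt14, a basal keratin, rose from 110.3 to 213 (0.95, adjusted p 1.18e-05) and Sfn, an adaptor of the 14-3-3 family, from 15.8 to 31.5 (0.93, adjusted p 0.000392).

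Mesenchymal and matrix genes fell. Of 25 mesenchymal genes tested, 24 were called lower and none higher (median −1.10), and their summed level was 16466 to 18679 TPM in parental libraries and 7708 to 9413 in line B. Line B held 426, 418, 425 and 346 TPM of Fn1, where the parental line held 1741, 1996, 1617 and 1650.4 TPM. Fn1, the matrix protein fibronectin, fell by 2.11 ± 0.09 (adjusted p 1.25e-07), and line B library 4 was its lowest. For Tnc, the parental values were 78.6, 109, 94.5 and 74.6 TPM and the line B values 4.7, 4.41, 4.9 and 3.07 TPM. Itga5 measured 136, 139, 122 and 138 TPM in parental libraries 1 to 4 and 21.3, 16.9, 19.8 and 16.2 TPM in line B libraries 1 to 4. Tnc, the matrix protein tenascin C, fell by 4.09 ± 0.15 (adjusted p 5.5e-08), and Itga5, the fibronectin receptor subunit, fell by 2.79 ± 0.09 (adjusted p 4.37e-08). Loxl2, a collagen cross-linking enzyme, fell from 100.3 to 38.3 TPM (−1.37, adjusted p 1.18e-07). Of 28 collagens and matrix enzymes tested, 25 were called lower and 1 higher (median −1.53). Mmp10 was at 20.9, 27.5, 25.3 and 21.8 TPM in the parental libraries and at 0.47, 0.362, 0.395 and 0.191 TPM in the line B libraries. Mmp10, the protease stromelysin 2, fell by 4.20 ± 0.11 (adjusted p 1.51e-08), to under 1 TPM in every line B library. Mmp3 stood at 29.1, 50.2, 41.2 and 31.7 TPM in the parental libraries, against 1.85, 0.693, 1.32 and 1.32 TPM in line B. In the parental libraries Mmp13 was at 47.8, 55.8, 43 and 41 TPM, and in line B at 1.9, 0.944, 1.49 and 2.64 TPM. Mmp3, stromelysin 1, fell by 4.08 ± 0.20 (adjusted p 2.27e-07) and Mmp13, a collagenase, by 4.15 ± 0.18 (adjusted p 1.42e-07). These are the proteases whose promoters are printed above with AP-1 letters near the start. Of 21 matrix genes with a promoter, 5 hold those letters (23.8%), against 6.11% of the promoters of tested genes and 7.82% of all. Among lists that rose, 6 of 29 interferon effectors, 2 of 5 MHC class II genes and 2 of 10 gastric genes hold them. Of the MHC class I genes, which also rose, 0 of 19 do, and of the mesenchymal genes, which fell, 1 of 15. The letters were thus not particular to lists that fell. Col5a1, a fibril collagen, fell from 31.6 ± 1.64 to 4.05 ± 0.844 TPM (−2.70, adjusted p 9.93e-08), Col4a2, a basement membrane collagen, from 97.6 to 37.3 (−1.36, adjusted p 1.34e-07) and Plat, the tissue plasminogen activator, from 553 to 178 (−1.64, adjusted p 1.24e-07).

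Most fibroblast and pericyte markers were lower too. Of 11 tested, 9 were called lower and 2 higher (24.7% and 34.9% of all genes). Those that define fibroblasts were low in every library: Pdgfra measured 0.990 to 2.13 TPM in parental libraries and 0.388 to 0.637 in line B, Dcn 2.57 to 5.03 against 1.71 to 3.14, and Lum 1.26 to 2.26 against 0.542 to 1.01. The collagen Col1a1 measured 106 to 164 TPM against 27.6 to 55.0, and Pdgfrb, a receptor of pericytes, 6.13 to 11 against 0.436 to 0.724. The 2 called higher were Dpt (0.600 to 1.75 TPM against 1.34 to 2.96, adjusted p 0.0395) and Cspg4 (27.8 to 32.6 against 45.9 to 54.8, adjusted p 1.93e-05). The part of fibroblast RNA in the matrix result was not tested. Integrins and laminins were divided, with 4 of 17 called higher and 8 lower (34.9% and 24.7% of all genes). Levels of Lamb1 were 139, 131, 132 and 139.8 TPM in the parental libraries and 22, 20.9, 17.6 and 16.2 TPM in line B. Lamb1, a laminin chain, fell by 2.77 ± 0.09 (adjusted p 4.89e-08). The integrin subunits Itgb1 and Itga3 fell from 372 to 195 TPM (−0.93) and from 426 to 248 (−0.78), and Itga1, a collagen receptor subunit, rose from 16 to 33.5 (1.02; adjusted p 1.51e-07, 3.77e-06 and 4.46e-07).

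**Figure D3:**
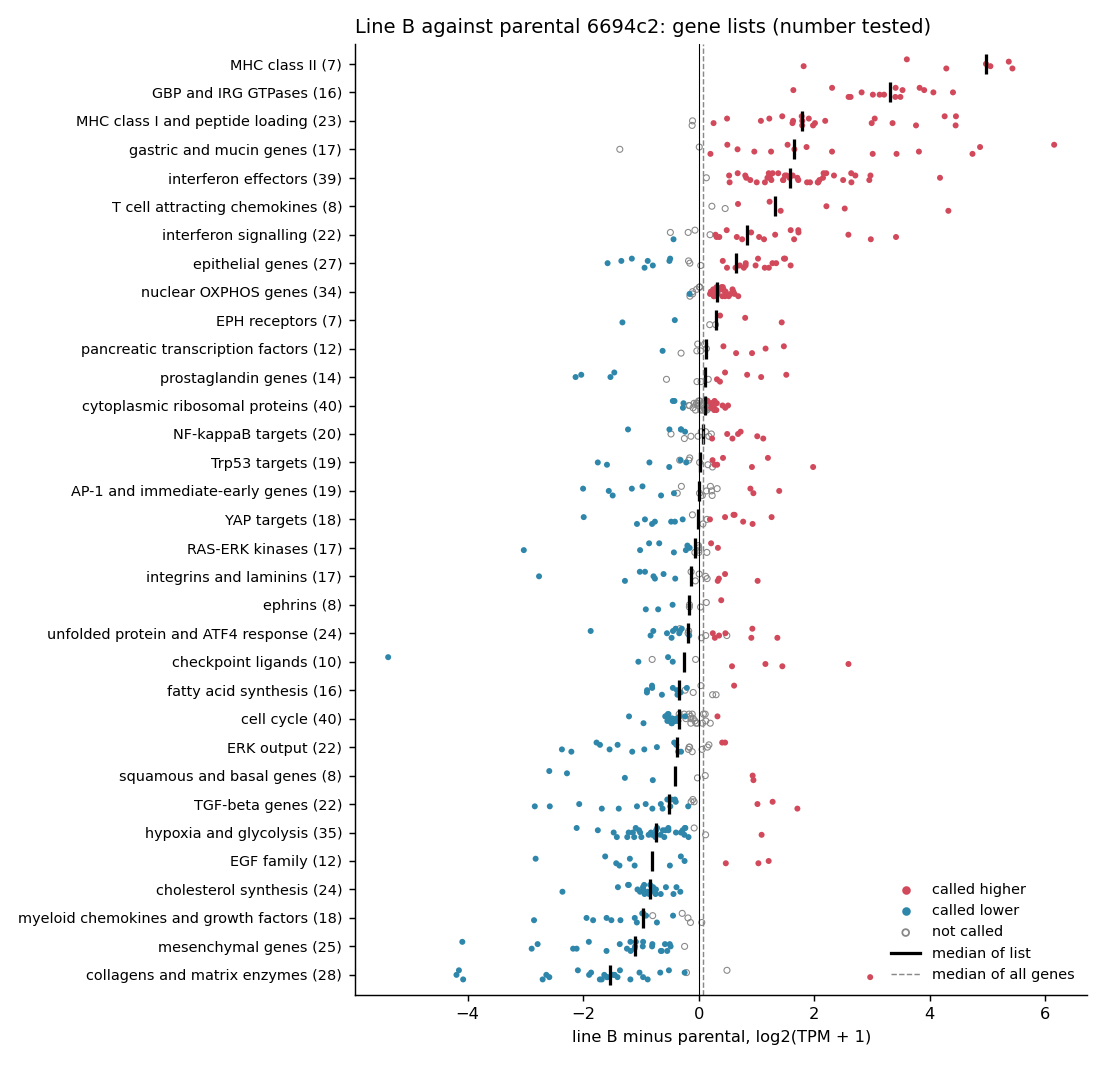
Difference between line B and parental 6694c2 (horizontal axis, log2(TPM + 1) scale) for each tested member of 33 gene lists, ordered by their median (black bar); filled points were called higher or lower and open points were not called, and the dashed line is the median over all genes, 0.08. MHC class II (median 4.98) and the GTPases (3.31) lie at the top, and the mesenchymal (−1.10) and collagen and matrix lists (−1.53) at the bottom.

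Secreted regulators of matrix and inflammation fell as well. TGF-beta drives matrix production and the mesenchymal state, and of 22 genes of its pathway 3 were called higher and 16 lower (median −0.52). Tgfb1 had 217, 226, 194 and 205 TPM in parental libraries 1 to 4 and 65.7, 64, 67.3 and 63 TPM in line B. Tgfb1, the ligand (chr7:25687002-25705077), fell by 1.68 ± 0.06 (adjusted p 5.01e-08). Ltbp1 and Ltbp2, which bind latent TGF-beta or its matrix, fell from 84.1 to 31.7 TPM (−1.38, adjusted p 3.86e-07) and from 17.5 to 1.59 (−2.84, adjusted p 5.17e-08). Parental libraries 1 to 4 gave 78.5, 73.1, 69.3 and 68.4 TPM for Grem1, and line B gave 0.727, 0.498, 0.803 and 0.867 TPM. Grem1, a secreted antagonist of bone morphogenetic proteins (chr2:113748675-113758648), fell by 5.41 ± 0.08 (adjusted p 2.05e-09), to under 1 TPM in every line B library, and was the lowest named gene. Of 14 prostaglandin genes tested, 6 were called higher and 4 lower (34.9% and 24.7% of all genes). Line B held 7.35, 6.48, 6.21 and 5.94 TPM of Ptgs2, where the parental line held 30.2, 36.1, 33.5 and 27.8 TPM. Ptgs2, the gene of cyclooxygenase 2, fell by 2.13 ± 0.09 (adjusted p 1.42e-07, exact two-sided permutation p = 0.0286, the smallest possible). For Ptges, the parental values were 71, 70.7, 74.2 and 75.6 TPM and the line B values 18.8, 15.6, 15.7 and 18.2 TPM. Ptges, the synthase that makes prostaglandin E2 from its product, fell by 2.03 ± 0.07 (adjusted p 5.17e-08). Slco2a1, the prostaglandin transporter, fell from 49.5 to 17.5 TPM (−1.46, adjusted p 2.03e-06), and Ptger4, a receptor of prostaglandin E2, rose from 3.13 to 10.9 (1.52, adjusted p 2.2e-06).

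Ligands of the EGF receptor and the genes that report RAS-ERK signalling were mostly lower in line B. RAS activates the RAF, MEK and ERK kinases, and active ERK induces its own phosphatases and transcription factors. Of 12 EGF family genes tested, 3 were called higher and 9 lower (median −0.80). Areg measured 139, 122, 125 and 137 TPM in parental libraries 1 to 4 and 14.3, 19.3, 17.8 and 19.4 TPM in line B libraries 1 to 4. Areg, the ligand amphiregulin, fell by 2.82 ± 0.10 (adjusted p 5.17e-08). Ereg, Btc and Hbegf, which bind the same receptor, fell from 13.8 to 3.79 TPM (−1.62), from 78.9 to 28.7 (−1.43) and from 325 to 125 (−1.37; adjusted p 3.54e-07, 8.92e-08 and 4.17e-07). Of 17 genes of the RAS-ERK cascade, 2 were called higher and 8 lower (34.9% and 24.7% of all genes), with a median of −0.07 against 0.08 over all genes. Rasgrf1 was at 8.2, 9.62, 7.02 and 11.3 TPM in the parental libraries and at 0.096, 0.227, 0.239 and 0.304 TPM in the line B libraries. Rasgrf1, an exchange factor that activates RAS, fell by 3.03 ± 0.14 (adjusted p 1.67e-07). Map2k1 stood at 195, 185, 178 and 189 TPM in the parental libraries, against 89.9, 87.6, 86.8 and 104 TPM in line B. Map2k1, the kinase MEK1, fell by 1.01 ± 0.07 (adjusted p 1.29e-06), Mapk3, the kinase ERK1, from 362 to 226 TPM (−0.68, adjusted p 0.000163) and Rasa1, which inactivates RAS, from 41.3 to 22.3 (−0.86, adjusted p 1.23e-06).

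Genes that ERK induces were more often lower than higher. Of 22 tested, 2 were called higher and 13 lower (median −0.37), where 34.9% of all genes were called higher and 24.7% lower. In the parental libraries Dusp4 was at 325, 310.2, 254 and 274 TPM, and in line B at 61.3, 62, 61.2 and 63.4 TPM. Levels of Dusp5 were 393, 336, 289 and 329 TPM in the parental libraries and 58.9, 77.6, 55 and 66.8 TPM in line B. Dusp4 and Dusp5, phosphatases that switch ERK off, fell by 2.21 ± 0.08 (adjusted p 5.17e-08) and 2.37 ± 0.12 (adjusted p 3e-07), with no overlap. Fosl1 had 73.9, 78.6, 71.1 and 76.8 TPM in parental libraries 1 to 4 and 18.9, 22.4, 24.8 and 23.4 TPM in line B. Fosl1, the AP-1 subunit FRA1 that ERK stabilises, fell by 1.71 ± 0.08 (adjusted p 2.22e-07) and the transcription factor Ets1 from 36.6 to 11.9 TPM (−1.54, adjusted p 5.01e-08). Of 19 AP-1 and immediate-early genes, 3 were called higher and 7 lower. These calls leaned to lower beside the shares over all genes, while the median was 0.01 against 0.08. Egr3 and Egr2 fell from 9.98 to 1.74 TPM (−2.0) and from 13 to 3.81 (−1.56), Maff from 137 to 61 (−1.16) and Klf2 from 73.2 to 25.6 (−1.49; adjusted p 7.92e-07, 4.05e-05, 1.43e-06 and 1.05e-05). Targets of the coactivator YAP split, with 7 of 18 called higher and 8 lower, where 34.9% of all genes were called higher and 24.7% lower. Tead2, a partner of YAP, fell from 109 to 27.2 TPM (−1.99), the receptor kinase Axl fell from 209.7 to 119 (−0.81), and Nuak2, a kinase, and Crim1 rose from 6.12 to 16.2 (1.26) and from 37.7 to 65.1 (0.77; adjusted p 3.72e-06, 9.11e-06, 2.23e-06 and 5.52e-06).

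Glycolysis and hypoxia genes were lower in line B, while genes of oxidative phosphorylation were slightly higher. HIF factors induce glucose transporters, glycolytic enzymes and prolyl hydroxylases when oxygen is low. Of 35 genes tested, 32 were called lower and 1 higher (median −0.74), and their summed level was 25799 to 27388 TPM in parental libraries and 16206 to 18110 in line B. Parental libraries 1 to 4 gave 1093, 1067, 1021 and 1116 TPM for Pgk1, and line B gave 467, 442, 452 and 492 TPM. Pgk1, a glycolytic kinase, fell by 1.21 ± 0.05 (adjusted p 1.38e-07). Line B held 194, 207, 202 and 221 TPM of Slc2a1, where the parental line held 491, 514, 458 and 488 TPM. Slc2a1, the glucose transporter GLUT1, fell by 1.24 ± 0.06 (adjusted p 1.72e-07). For Slc16a3, the parental values were 133, 157, 147 and 147 TPM and the line B values 39.4, 44.5, 40.2 and 46.8 TPM. Slc16a3, the transporter that exports lactate, fell by 1.75 ± 0.07 (adjusted p 1.18e-07), and P4ha1, a collagen prolyl hydroxylase, from 67 to 32.2 TPM (−1.03, adjusted p 3.97e-07). The HRE letters printed above in Pgk1 and Slc2a1 stand in 19 of the 33 promoters of this list (57.6%), against 24.7% of the promoters of tested genes and 18.5% of all. They also stand in 7 of 19 MHC class I genes, which rose, 7 of 14 p53 targets and 6 of 13 genes that ERK induces. Among other lists that rose, 3 of 29 interferon effectors and 0 of 10 gastric genes hold them. Of 34 nuclear genes of oxidative phosphorylation, 26 were called higher and 1 lower (median 0.32). The subunits Ndufs8, Sdhb, Ndufv2 and Cox5b rose from 124 to 191 TPM (0.62), from 94.8 to 153 (0.69), from 44.8 to 67.7 (0.59) and from 412 to 567 (0.46; adjusted p 9.41e-06, 1.59e-05, 1.75e-05 and 8.07e-05).

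Sterol synthesis fell across its whole list. The factor SREBP2 induces these enzymes when cholesterol is scarce. All 24 genes tested were called lower and none higher (median −0.85), and their summed level was 2024 to 2197 TPM in parental libraries and 973 to 1188 in line B. Msmo1 measured 123, 124, 132 and 131 TPM in parental libraries 1 to 4 and 45.2, 46.6, 48.1 and 51.2 TPM in line B libraries 1 to 4. Msmo1, a sterol oxidase, fell by 1.40 ± 0.05 (adjusted p 8.47e-08). Sqle, the squalene epoxidase, fell from 112 to 48.1 TPM (−1.21, adjusted p 5.47e-07) and Nsdhl, a sterol dehydrogenase, from 19.3 to 7.7 (−1.22, adjusted p 8.06e-07). Of 16 fatty acid synthesis genes, 1 was called higher and 10 lower (median −0.34). The desaturases Scd1 and Scd2 fell from 70.8 to 40.1 TPM (−0.81) and from 465 to 266 (−0.81), and the acyl-CoA synthetases Acsl3 and Acsl4 from 47.9 to 25.3 (−0.90) and from 31.7 to 16.6 (−0.89; adjusted p 2.2e-06, 4.95e-06, 5.13e-06 and 7.47e-07). Genes of the unfolded protein and ATF4 responses split, with 7 of 24 called higher and 11 lower (34.9% and 24.7% of all genes). Xbp1, a factor of the unfolded protein response, and Asns, the asparagine synthetase induced by ATF4, rose from 90.7 to 172 TPM (0.91) and from 22.4 to 59.4 (1.36), whereas Atf4 itself and Vldlr, a lipoprotein receptor, fell from 311 to 174 (−0.83) and from 19.2 to 4.6 (−1.87; adjusted p 5.23e-06, 7.96e-07, 4.31e-06 and 1.85e-06).

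Cell cycle genes were modestly lower. Of 40 tested, 22 were called lower and 1 higher (median −0.34). E2f1 was at 22.5, 24.2, 25.7 and 25.8 TPM in the parental libraries and at 9.39, 11.8, 9.78 and 9.37 TPM in the line B libraries. E2f1, the factor that starts DNA synthesis, fell by 1.21 ± 0.08 (adjusted p 2.14e-06), and line B library 2 was its highest line B value. Cdc45 and Mcm4 of the replicative helicase fell from 19.2 to 9.51 TPM (−0.96) and from 31 to 21.1 (−0.53), and Pcna, the sliding clamp, from 222 to 158 (−0.49; adjusted p 0.00038, 0.000609 and 6.97e-05). Targets of p53 did not share a direction, with 7 of 19 called higher and 6 lower, near the shares of 34.9% and 24.7% over all genes tested. Cdkn1a stood at 56.8, 57.5, 46.2 and 50.5 TPM in the parental libraries, against 14.5, 15.9, 15.5 and 22.4 TPM in line B. Cdkn1a, the cell cycle inhibitor p21, fell by 1.59 ± 0.13 (adjusted p 6.4e-06). In the parental libraries Fas was at 2.95, 3.96, 1.97 and 2.65 TPM, and in line B at 14.6, 13.7, 14.2 and 13.9 TPM. Fas, the death receptor, which interferon also induces, rose by 1.98 ± 0.14 (adjusted p 1.98e-06). Perp and Phlda3 rose from 48.4 to 113 TPM (1.20, adjusted p 2.12e-06) and from 103 to 197 (0.92, adjusted p 1.17e-06).

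Further cancer genes gave mixed values. Levels of Trp53 were 142, 147, 153 and 154 TPM in the parental libraries and 193, 197, 193 and 132 TPM in line B. Trp53 differed by 0.24 ± 0.12 (adjusted p 0.116), and without line B library 4, its lowest value, the difference was 0.38 (adjusted p 5.34e-05). Myc had 109.7, 101, 99.2 and 105 TPM in parental libraries 1 to 4 and 90.8, 109.8, 95.4 and 78.1 TPM in line B. Myc differed by −0.16 ± 0.09 (adjusted p 0.176), and it was called lower after median-of-ratios scaling (adjusted p 0.00901), after quantile normalization (0.0467) and without line B library 2 (0.0302). Cdkn2a was listed at 0 in all 4 parental libraries and in 2 line B libraries, reached 0.369 TPM at most and was not tested. Of 40 cytoplasmic ribosomal protein genes, 12 were called higher and 4 lower. Rps15, Rpl22 and Rpl18 rose from 2611 to 3716 TPM (0.51), from 196 to 262 (0.41) and from 2955 to 3653 (0.31), and Rpl8 fell from 3468 to 2600.1 (−0.42; adjusted p 2.29e-05, 0.000232, 0.000383 and 0.000452). The higher calls in this list, at 12 of 40 or near the share of all genes, became 20 without line B library 4.

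Several of the largest differences lay outside the lists. The named genes were the 15 largest differences in each direction among called genes with no overlap and a mean of at least 5 TPM in the higher group. Parental libraries 1 to 4 gave 227, 225, 203 and 232 TPM for Mcpt8, and line B gave 8.6, 4.68, 3.38 and 3.42 TPM. Mcpt8, a mast cell and basophil protease, fell by 5.29 ± 0.22 (adjusted p 1.18e-07). Gzme, a granzyme, fell from 47.3 ± 9.16 to 0.588 ± 0.201 TPM (−4.92, adjusted p 2.62e-08), and Npy, the neuropeptide Y gene, from 48.3 ± 8.03 to 0.773 ± 0.29 (−4.80, adjusted p 3.51e-08). Ank, a transporter of pyrophosphate and citrate, fell from 275 to 10.7 TPM (−4.55), Ptprn, a protein of secretory granules, from 252 to 10.3 (−4.51), and Mgp, a matrix protein that blocks calcification, from 72.7 to 3.15 (−4.11; adjusted p 3.61e-09, 2.75e-08 and 3.45e-07). Arap3, a regulator of small GTPases, Odaph and Dynap fell from 51.5 to 2.38 TPM (−3.99), from 64.9 to 2.7 (−4.29) and from 40.9 to 0.851 (−4.53; adjusted p 9.12e-08, 2.51e-06 and 2.9e-07). The rises included receptors and a lung protein. Line B held 41.2, 53.9, 49.4 and 29.6 TPM of Fgfr3, where the parental line held 0.917, 0.94, 1.05 and 0.643 TPM. Fgfr3, a receptor of fibroblast growth factors, rose by 4.53 ± 0.17 (adjusted p 6.72e-08). For Adgrg7, the parental values were 0, 0.0666, 0.0316 and 0.0336 TPM and the line B values 30.2, 30.2, 30.1 and 21 TPM. Adgrg7, an adhesion receptor coupled to G proteins, rose from values near 0 (4.79 ± 0.12, adjusted p 1.35e-08), with line B library 4 the lowest of its line. Sftpd, a collectin of lung surfactant, rose from 0.664 ± 0.464 to 52.6 ± 14.7 TPM (5.0, adjusted p 2.48e-07) and the membrane protein gene Tmem45a from 1.09 ± 0.244 to 55.3 ± 10.1 (4.74, adjusted p 2.79e-08).

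Line B was next set against line A, the other knockout line, to test where the lines of one clone differ. The test used all 12 libraries of 6694c2 in one fit, and of 13512 genes it called 6739 (49.9%), 3428 higher in line B (25.4%) and 3311 lower (24.5%). The line A libraries did not form one group. Libraries 1 and 2 correlated with each other at r = 0.979 and libraries 3 and 4 at 0.987, with 0.962 to 0.969 between the pairs. Libraries 1 and 2 correlated with line B at 0.942 to 0.953 and libraries 3 and 4 at 0.908 to 0.915. Counts, and values of genes whose call or size depends on the pair, are therefore also given against each pair of line A libraries alone, a choice made after seeing the data. With libraries 3 and 4 left out 5566 of 13201 genes were called, 3285 higher in line B and 2281 lower. With libraries 1 and 2 left out 7703 of 13342 were called, 3267 higher and 4436 lower. Counts of list members against a pair are to be read beside these.

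The matrix, mesenchymal, gastric and glycolytic differences set line B apart from line A as well as from the parental line. Of 28 collagens and matrix enzymes, 25 were called lower in line B than in line A and 1 higher (25.4% of all genes were higher and 24.5% lower), and 23 and 26 were lower against the pairs. Of 25 mesenchymal genes, 24 were lower and 1 higher, with 23 lower against either pair. Of 35 hypoxia and glycolysis genes, 32 were lower and 1 higher (34 and 28 against the pairs), and of 34 nuclear genes of oxidative phosphorylation 27 were higher and none lower (24 against either pair). Of 17 gastric genes, 11 were higher and none lower (11 and 14 higher and 2 lower against either pair). The line A libraries held 4.14, 1.58, 0.509 and 0.535 TPM of Gkn2. Muc5ac measured 4.98, 0.902, 5.54 and 5.86 TPM in line A. For Gkn2 and Muc5ac the line B libraries lay above all line A libraries, by 6.96 (adjusted p 1.02e-06) and 4.97 (adjusted p 1.03e-06). Line A values of Tff2 were 996, 875, 363 and 378 TPM. The line A libraries held 1055, 969, 1849.8 and 1943 TPM of Fn1. Tff2 was higher in line B by 2.28 (adjusted p 0.000111), and Fn1 was lower (−1.78, adjusted p 1.81e-05). Tgfb1 averaged 306 TPM in line A and 65 in line B (−2.19, adjusted p 8.08e-08), Grem1 35.8 and 0.724 (−4.32, adjusted p 9.54e-08), Pgk1 1347 and 463 (−1.53, adjusted p 2.78e-08) and Dusp4 259.9 and 62 (−2.03, adjusted p 1.2e-07).

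**Figure D4:**
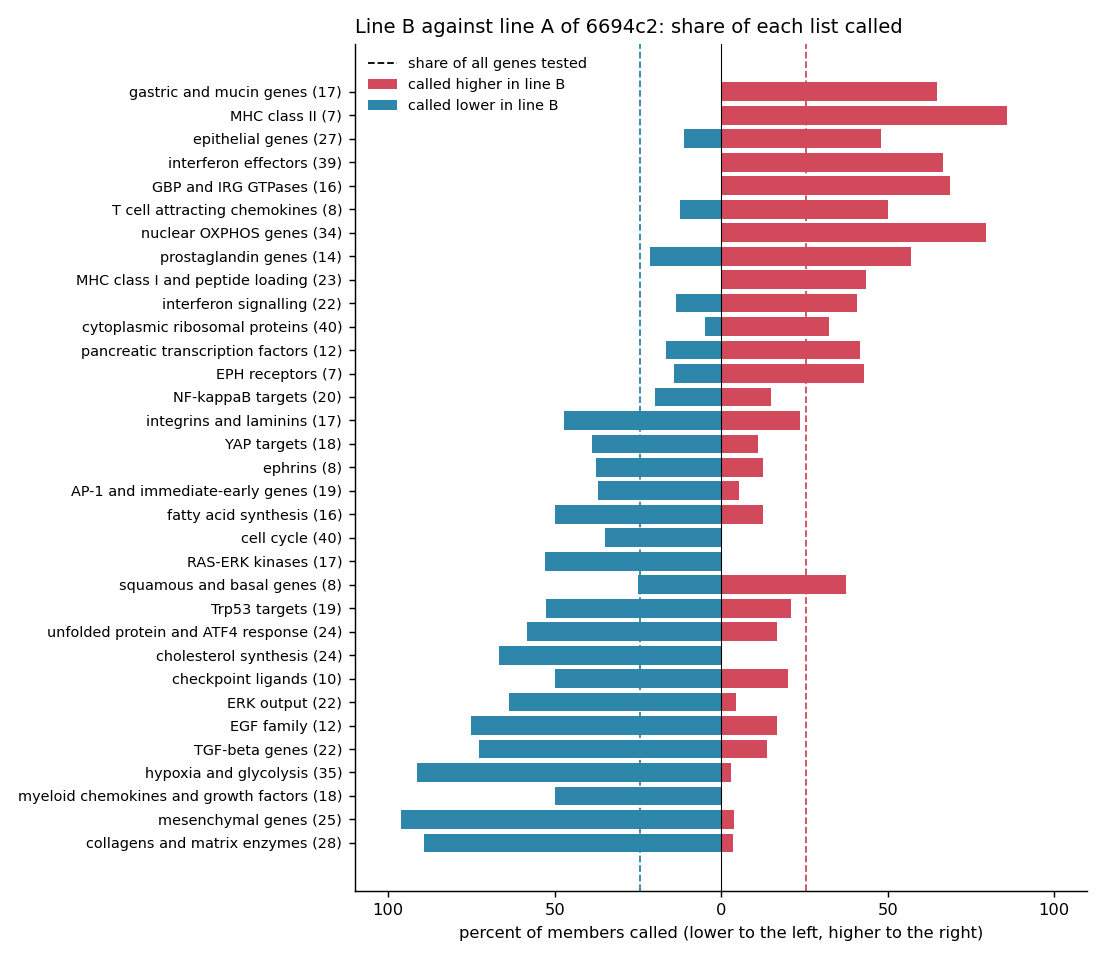
Percent of the members of each of 33 gene lists called higher (to the right) or lower (to the left) in line B than in line A of 6694c2, with the number tested after each name; dashed lines give the shares over all 13512 genes, 25.4% higher and 24.5% lower. The mesenchymal, matrix and hypoxia lists have the longest bars to the left, and MHC class II and nuclear OXPHOS genes the longest to the right.

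Interferon genes were high in both knockout lines, which are compared with the same parental libraries. Of 16 GTPases 11 were called higher in line B than in line A and none lower (25.4% and 24.5% of all genes), with a median of 0.56, and 6 and 10 were higher against the pairs. Of 39 interferon effectors 26 were higher and none lower (20 and 30 against the pairs), and of 23 class I genes 10 were higher and none lower (7 and 11 higher and 1 lower against either pair). Nlrc5 averaged 16.6 TPM in line A and 16.2 in line B and H2-K1 2422 and 2988, against parental means of 1.2 and 377, and neither was called different (−0.03, adjusted p 0.887, and 0.32, adjusted p 0.0673). With line A libraries 1 and 2 left out H2-K1 was called higher in line B (0.55, adjusted p 0.00409), and with libraries 3 and 4 left out it was not (0.09, adjusted p 0.603). Class II genes were higher in line B in 6 of 7 cases, in 4 with line A libraries 3 and 4 left out and in 7 with libraries 1 and 2 left out. Cd74 measured 1001, 894, 407 and 456 TPM in line A. Cd74 was higher by 1.24 (adjusted p 0.00291), by 0.68 (adjusted p 0.0272) with line A libraries 3 and 4 left out and by 1.81 (adjusted p 3.81e-05) with libraries 1 and 2 left out. Cxcl9 averaged 29 TPM in line A and was higher in line B by 0.61 (adjusted p 0.0336), a call that was lost with line A libraries 3 and 4 left out (0.47, adjusted p 0.202). Myeloid factors were called lower in line B in 9 of 18 cases, in 4 with line A libraries 3 and 4 left out and in 15 with libraries 1 and 2 left out. Over all genes, 2281 of 13201 and 4436 of 13342 were lower in those 2 fits. Line A values of Csf2 were 15.6, 3.58, 44.5 and 45.5 TPM. Csf2 was lower in line B (−1.96, adjusted p 0.0117), yet line A library 2 fell inside the range of line B. With line A libraries 3 and 4 left out the Csf2 difference was −0.76 (adjusted p 0.128), and with libraries 1 and 2 left out it was −3.16 (adjusted p 9.23e-09). The line A libraries held 13.3, 12.9, 64.5 and 66.5 TPM of Il11. Il11 was below its parental mean of 4.78 TPM in line B and above it in line A, a difference of −4.0 (adjusted p 2.32e-05). Siglec15 averaged 99.7 TPM in line A (−4.78, adjusted p 8.08e-08), and Ptges 74.2 (−2.06, adjusted p 1.47e-08). Ptgs2 averaged 8.56 TPM in line A and was not called different (−0.28, adjusted p 0.302). The Ptgs2 difference was called with line A libraries 1 and 2 left out (−0.71, adjusted p 0.000254) and had the opposite sign with libraries 3 and 4 left out (0.15, adjusted p 0.493). Cell cycle genes were called lower in line B than in line A in 14 of 40 cases (24.5% of all genes). The count was 4 with line A libraries 3 and 4 left out, under the share of 2281 of 13201 over all genes. It was 27 with libraries 1 and 2 left out, beside 4436 of 13342.

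The effect of line B was also tested against the mean knockout effect in clone 6419c5, the only test here that spans the clones. Of 14337 genes, 5320 differed (37.1%), 2488 with the more positive value in line B (17.4%) and 2832 with the more negative (19.8%). Of the interferon genes, none of the 16 GTPases and 11 of 39 effectors were called different, 8 of the effectors more positive in line B. Gbp5 rose by 3.07 in 6419c5 (adjusted p 4.25e-06; difference 0.47, adjusted p 0.531). The SE of that difference was 0.53, and a p value over the threshold does not show that the clones respond alike. The class II genes were more positive in line B in 6 of 7 cases, with Cd74 at 2.29 in 6419c5 (difference 3.14, adjusted p 0.00212). Of 17 gastric genes, 9 were more positive in line B and none more negative. Tff2 measured −4.64 in 6419c5 (adjusted p 1.12e-08; difference 8.45, adjusted p 1.16e-09), Gkn2 −2.33 (difference 8.49, adjusted p 1.4e-07) and Muc5ac −0.64 (difference 5.38, adjusted p 1.83e-07). Of 24 sterol genes, 22 were more negative in line B and none more positive, and of 35 hypoxia and glycolysis genes 24 were more negative and none more positive; Pgk1 measured 0.20 in 6419c5 (difference −1.41, adjusted p 1.18e-06). Of 25 mesenchymal genes, 16 were more negative in line B and 1 more positive. Fn1 fell by 1.22 in 6419c5 (difference −0.90, adjusted p 0.0184) and Grem1 by 2.11 (difference −3.31, adjusted p 5.85e-05). Tgfb1 measured −0.01 (difference −1.66, adjusted p 2.71e-06). The Epha2 effect was −0.03 in 6419c5 (adjusted p 0.819; difference −1.29, adjusted p 2.9e-06), so the RNA of the targeted gene does not check the knockout labels there. The effect on Ptgs2 in 6419c5 was −0.80 (difference −1.34, adjusted p 0.00636).

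Differences were not spread evenly over the chromosomes. On the X chromosome the median over 361 tested genes was −0.33, with 36 called higher (9.97%) and 194 lower (53.7%), against 34.9% and 24.7% of all genes. Line A had a median of 0.17 there, and line B less line A was −0.49. Pgk1 is one of these genes. On chromosome 15 the median was −0.19 (507 genes, 48.7% called lower). On chromosome 4, where Epha2 and Slc2a1 lie, it was 0.32 (800 genes, 58.4% called higher), and on chromosome 10 it was 0.35 (594 genes), beside 0.32 in line A. These medians kept their sign after median-of-ratios scaling, at −0.40 for X, −0.27 for chromosome 15, 0.24 for chromosome 4 and 0.28 for chromosome 10. Gene copy number was not measured.

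**Figure D5:**
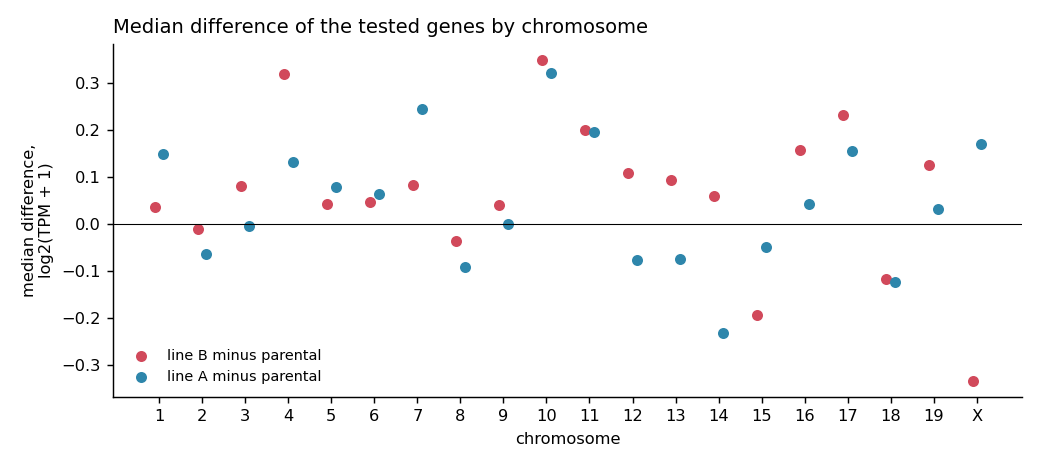
Median difference from the parental line over the tested genes of each chromosome (vertical axis, log2(TPM + 1) scale; horizontal axis, chromosome) for line B and line A of 6694c2, which share the 4 parental libraries. Line B is lowest on X (−0.33), where line A is at 0.17, and on chromosome 10 they are at 0.35 and 0.32.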

How the data were processed

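Gene-level TPM values from 21 libraries were deposited by the authors in 1 table of 24623 genes, and all its value columns were matched to samples by clone and line. Per the submitters' processing notes, Salmon and the genome build mm10 were used. The Salmon version, the annotation and the filters are not given in the sources used here. TPM keeps no read depth, so no counting error can be given, and 1 gene that takes a large share of a library lowers all others in it.

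Values were used as log2(TPM + 1). A gene was tested if 3 or more of the 8 libraries had 1 TPM or more. The test was limma 3.58.1 in R 4.3.3 (linear model, empirical Bayes with trend, 6 residual degrees of freedom), and p values were adjusted by Benjamini-Hochberg. Line B against line A was fitted on the 12 libraries of 6694c2, and the clones were compared on all 21. The procedure was tested on simulated data. Genes were named by rule: the 15 largest differences in each direction among called genes whose groups did not overlap and whose higher group averaged at least 5 TPM, with unnamed gene models and small RNA genes passed over; up to 4 members of each of 33 pathway lists with the smallest p; and 11 further genes chosen by name. Members and lists were chosen with earlier results of these data known. Symbols were matched to RefSeq (GRCm38.p6) for 13048 of 13080 tested genes, 287 of them through a synonym, for chromosomes and promoters. Library numbers did not pair the samples: deviations of same-numbered libraries from their group means correlated at −0.04 to 0.15. Alternatives covered the pseudocount, the filter, the scaling, the libraries fitted and the leaving out of each library. A few genes are not reported here.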

Additional observations from a re-analysis of the deposited data

Results flagged for a closer look

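In 308 groups of 4 libraries, 154 genes in each of the parental line and line B, 16 held a library whose gap to the nearest other as a share of the range, given after each gene, was above Dixon's 95% critical value for 4 samples. Chance gives about 1 in 20 such groups. In the parental line the lowest library stood apart for Epha4 (library 2, 0.922), Itga5 (library 3, 0.847), Slco2a1 (library 3, 0.861), Btc (library 1, 0.837) and Npy (library 2, 0.889), and the highest for Ltbp1 (library 4, 0.832). In line B the highest library stood apart for Gbp5 (library 1, 0.843), Csf3 (library 1, 0.860), Ptprn (library 1, 0.873), Egr2 (library 2, 0.894) and E2f1 (library 2, 0.834). The lowest line B library stood apart for Csf2 (library 3, 0.939), Lgals9 (library 4, 0.840), Fn1 (library 4, 0.900), Trp53 (library 4, 0.937) and Adgrg7 (library 4, 0.988). Line B library 4 is the one with 14.5% of its TPM in Mir6236.

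Of the 18 genes whose line B and line A levels are set side by side above, 14 differed in limma's test. Gkn2 (6.96), Muc5ac (4.97), Tff2 (2.28), Cd74 (1.24) and Cxcl9 (0.61) were higher in line B, Cxcl9 not called with line A libraries 3 and 4 left out (0.47, adjusted p 0.202). Siglec15 (−4.78), Grem1 (−4.32), Il11 (−4.0), Tgfb1 (−2.19), Ptges (−2.06), Dusp4 (−2.03), Csf2 (−1.96), Fn1 (−1.78) and Pgk1 (−1.53) were lower, Csf2 not called with those libraries left out (−0.76, adjusted p 0.128). The effect of line B differed from the mean 6419c5 effect for 10 of the 11 genes compared. It was more positive for Gkn2 (8.49), Tff2 (8.45), Muc5ac (5.38) and Cd74 (3.14), and more negative for Grem1 (−3.31), Tgfb1 (−1.66), Pgk1 (−1.41), Ptgs2 (−1.34), Epha2 (−1.29) and Fn1 (−0.90).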

How the results depend on the processing

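Under 19 alternatives to the comparison of line B with the parental line, 8 of which leave out 1 library, no called value changed direction. The count of called genes ranged from 7094 to 8665 with 1 library left out and from 6330 to 8588 under the others. With the library number as a replicate block, an unpaired number here, 7224 genes were called. Called genes with a change of at least 1 numbered 888 with a pseudocount of 5, against 1669, since a larger pseudocount shrinks the scale. Myeloid factors called lower numbered 8, against 13, with 12 libraries in the fit. Ribosomal protein genes called higher numbered 19 after rescaling without Mir6236, 19 after quantile normalization and 9 to 20 with 1 library left out, highest without line B library 4, against 12, and the cause was not tested. Of 3013 values of named genes under an alternative, 3002 kept their side of the threshold, and the exceptions were Epha4, Cd274, Cxcl1, Myc and Trp53. List medians were less steady: of 627 under an alternative, 559 were classed as the same and 68 as moved. Of 285 further list counts, 3 were classed as moved. For line B against line A, genes called lower numbered 2281 without line A libraries 3 and 4 and 4436 without libraries 1 and 2, alternatives chosen after seeing the data. Depth is unknown, so genes near 0 TPM carry an error that cannot be given.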
